A study of Mus musculus with 6 samples.

Results

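Insulin-like growth factors (IGFs) are secreted peptides that drive growth and survival through the receptor tyrosine kinase encoded by Igf1r. Outside the cell most IGF is held by IGF-binding proteins, which prolong its life, keep it from the receptor or bring it to the matrix; inside, the activated receptor phosphorylates the docking proteins encoded by Irs1 and Irs2, which pass the signal to the PI3K-AKT and RAS-ERK pathways. Fibroblasts both secrete these proteins and respond to them. The 10 genes described here were 6 binding protein genes (Igfbp2 to Igfbp7), the ligand gene Igf1, its receptor gene Igf1r and the docking protein genes Irs1 and Irs2. They were taken by symbol from clusters (the array's transcript units) that carried exactly 1 gene symbol, with the brightest cluster for a gene that had several. All 10 were found among 19938 genes, and all 10 lay above the brightness filter that left 15462 genes for testing.

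Levels came from Affymetrix mouse gene arrays of mouse embryonic fibroblasts (MEFs), a mixed connective tissue culture. The groups compared were 3 cultures labelled Rb1+/+ and 3 labelled Rb1L/L, all from E13.5 embryos, grown in serum-containing medium to passage 4 and harvested while proliferating. The Rb1L allele is known to alter the cleft through which the retinoblastoma protein pRb binds partners with an LXCXE motif; the strain, the sex and whether each culture came from a single embryo are not given in the labels. A p-value here sets the difference between the genotypes against the spread between these cultures. For limma, each gene's spread was first drawn toward that of all tested genes. Unless the replicate number is named as a block, the p-value leaves out the pairing of arrays by that number.

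All 15 fibroblast markers on the list lay above the filter. So did 9 of 10 endothelial, 6 of 7 epithelial and 4 of 6 liver markers. Pecam1 of endothelium, Epcam of epithelium and Alb and Ttr of liver lay below it. The filter left 15462 of all 19938 genes, so passing it says little about expression. Some markers lay near its limit of log2 5.081, such as Tek (5.09 in both genotypes) and Afp (5.11 in both). Among the endothelial markers Kdr rose by 0.58 (limma adjusted p = 0.00663) and no other passed. Of 11 macrophage and blood markers 3 were higher and 1 lower in Rb1L/L cultures (limma adjusted p under 0.05). Their median log2 fold change was 0.296. Adgre1 changed by 0.945 (limma adjusted p = 0.0241), Cd14 by 0.351 (0.0178), C1qa by 0.345 (0.0385) and Cx3cr1 by -0.341 (0.0406). The summed linear level of the 11 markers ran from 2330 to 3830 in Rb1+/+ and from 2730 to 4030 in Rb1L/L. Of 7 neural markers 3 were lower and none higher, with summed levels of 5380 to 5810 and 4490 to 4570. The fibroblast list, with 2 of 15 lower, summed to 55300 to 57400 and 52000 to 52700. No marker of skeletal muscle or of cartilage and bone was called. Summed levels in Rb1+/+ and Rb1L/L were 4880 to 5130 and 3980 to 5240 for muscle. For cartilage and bone they were 982 to 1080 and 900 to 935, which do not overlap. Linear sums weigh the brightest genes most, so they are not measures of cell type content. Mean log2 levels in Rb1+/+ and Rb1L/L were 12.08 and 12.02 for Acta1 of muscle. They were 11.81 and 11.51 for Ncam1 of the neural list, and 10.52 and 10.69 for Lyz2 of the macrophage list. The Rb1+/+ and Rb1L/L arrays numbered 1 were of male type (Xist at log2 5.13 and 4.79) and the other 4 of female type. The part of these differences in the results was not tested.

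The windows of 250 bases before the RefSeq start (GRCm38.p6) are shown for Igfbp3 and Igfbp5, the only members called lower, and for Igfbp4, a member not called that holds a similar motif. Each runs 5′ to 3′ on the gene's own strand, with the TATA-like match in capitals. Igfbp3 lies at chr11:7213924-7214173 and Igfbp5 at chr1:72874866-72875115, both on the minus strand, and Igfbp4 at chr11:99040994-99041243 on the plus strand.
Igfbp3: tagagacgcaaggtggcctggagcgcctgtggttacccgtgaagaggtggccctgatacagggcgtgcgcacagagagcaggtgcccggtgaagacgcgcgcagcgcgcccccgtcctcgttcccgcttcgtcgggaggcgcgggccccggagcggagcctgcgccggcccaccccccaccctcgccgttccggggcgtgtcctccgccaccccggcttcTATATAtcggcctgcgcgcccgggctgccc
Igfbp5: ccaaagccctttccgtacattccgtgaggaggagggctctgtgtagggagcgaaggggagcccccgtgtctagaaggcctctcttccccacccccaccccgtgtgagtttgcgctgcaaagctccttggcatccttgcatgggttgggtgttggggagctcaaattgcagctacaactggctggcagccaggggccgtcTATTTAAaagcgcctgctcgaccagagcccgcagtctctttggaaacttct
Igfbp4: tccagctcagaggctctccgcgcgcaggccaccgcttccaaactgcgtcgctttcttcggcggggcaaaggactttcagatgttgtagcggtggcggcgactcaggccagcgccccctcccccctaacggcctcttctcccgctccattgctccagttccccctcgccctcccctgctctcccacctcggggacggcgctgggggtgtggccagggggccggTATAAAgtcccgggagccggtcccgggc

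Motifs were searched on both strands of these windows for all 10 members, each of which matched the promoter table. The TATA-like letters TATAAA, their variant TATATA or a second variant, TATTTAA (added after the Igfbp5 window was seen), were present for 4 members and in 18.6% of 32851 promoters. That choice fixed the match in Igfbp5, whereas Igfbp3, Igfbp4 and Igfbp6 matched without this variant. Members were counted by gene and the share by promoter, so the count and the share are unlike measures. The matches began 30 bases before the start in Igfbp3, 51 in Igfbp5 and 28 in Igfbp4, and the match in Igfbp6 lay 148 bases upstream on the opposite strand. The E2F letters TTTCCCGC, TTTGGCGC, TTTCGCGC or TTTGCCGC occurred in 1.86% of promoters and, among the members, in Irs2 alone, 194 bases upstream. The interferon element, searched as GAAA and a second GAAA after any 2 bases and found in 2.98% of promoters, occurred in none of the 10 windows. CpG dinucleotides numbered 32 in the Igfbp3 window, 10 in that of Igfbp5 and 22 in that of Igfbp4; over the windows of all 10 members they ranged from 5 (Igf1) to 42 (Igf1r), and their median over all promoters was 6. These matches are descriptions of sequence, and no binding was measured here.

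The comparison asked how expression differs between the genotypes. Igfbp3 and Igfbp5 fell in Rb1L/L cultures, and no other member passed the test. In all, 2 of 10 members fell and none rose (limma, Benjamini-Hochberg adjustment over all tested genes, adjusted p under 0.05; at an unadjusted p under 0.05 the counts were also 2 and 0). The number that fell was 1 when Rb1+/+ replicate 1 or 3 was left out, and 0 when Rb1L/L replicate 1 or 2 was. Among the 15462 genes 5.08% fell, 7.1% rose and 12.2% were called in either direction. At an unadjusted p under 0.05 (limma), 2219 of the 15462 genes fell and 2225 rose. That is the background for the unadjusted counts of the members and of the lists below. The median log2 fold change (Rb1L/L minus Rb1+/+) of the 10 was -0.077, beside -0.021 over all tested genes, and 7 of them were below 0, as were 56.4% of all genes. In bulk cultures fewer cells of a type and less RNA per cell cannot be told apart.

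**Figure D1:**
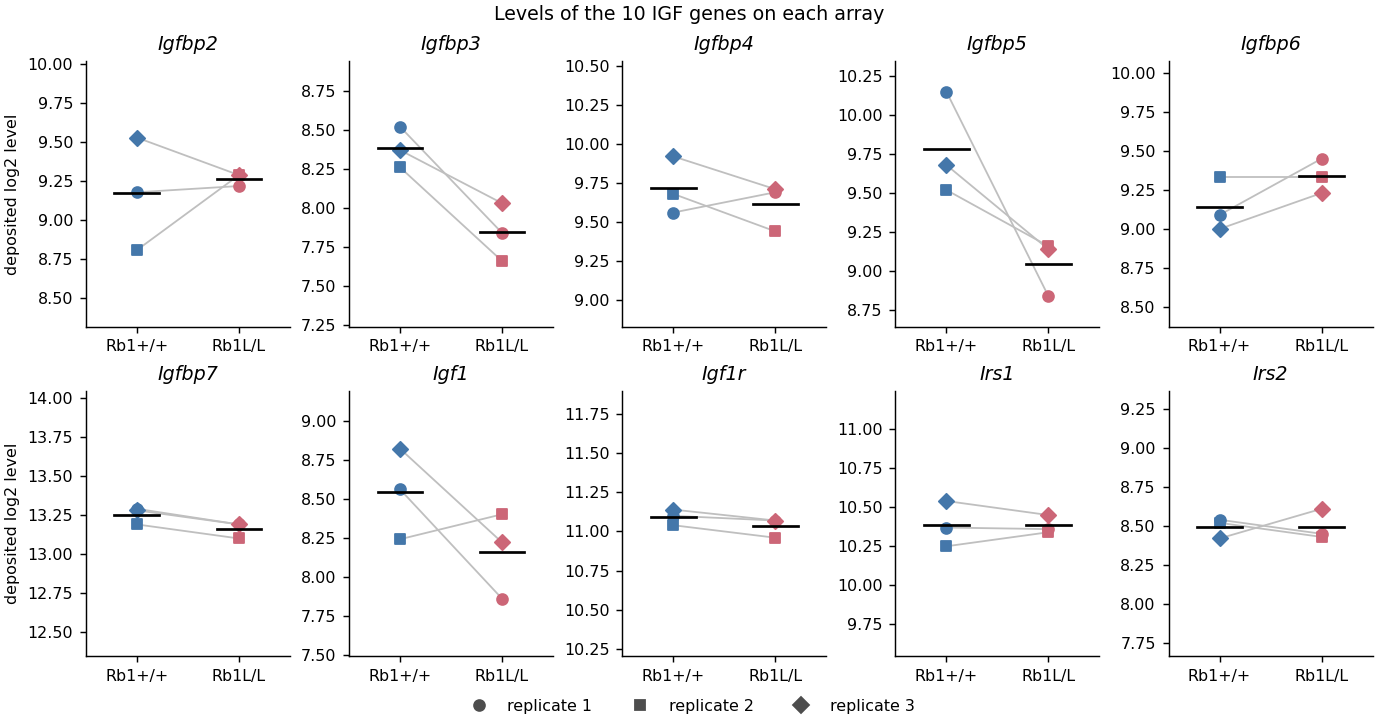
Deposited log2 level (y) of each of the 10 genes on the Rb1+/+ (blue) and Rb1L/L (red) arrays; marker shape gives the replicate number, grey lines join arrays of the same number, black bars are group means, and every panel spans the same number of log2 units. Igfbp3 and Igfbp5 are lower on all 3 Rb1L/L arrays than on any Rb1+/+ array, while the groups overlap for Igfbp2, Igfbp4, Igfbp6, Igf1, Igf1r, Irs1 and Irs2.

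Igfbp5 encodes a binding protein that also attaches to the extracellular matrix and has roles in muscle and bone. Its log2 level (cluster 10355500) was 10.15, 9.52 and 9.68 in Rb1+/+ replicates 1, 2 and 3 and 8.84, 9.16 and 9.14 in Rb1L/L replicates 1, 2 and 3. The groups did not overlap, and the highest and the lowest level of the 6 were both on arrays numbered 1. Group means were 9.78 ± 0.33 and 9.05 ± 0.18 (SD, n = 3), a change of -0.74 ± 0.16 (SE), or 1.67-fold lower, with limma adjusted p = 0.0241. Its 95% confidence interval, not adjusted for the number of genes, ran from -1.10 to -0.37. Differences within same-numbered arrays were -1.31, -0.36 and -0.54. The call was lost without Rb1+/+ replicate 3 (limma adjusted p = 0.0528) and when Rb1L/L replicate 1 (0.0788) or 2 (0.0552) was left out. Without both male-type arrays the change was -0.45 (limma adjusted p = 0.0865), less in size by over 1.5 times. Without both arrays numbered 3 it was -0.84 (0.0972). These fits called only 5 and 110 of all tested genes lower.

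Igfbp3 encodes the main carrier of IGF in serum, which forms a complex with the acid-labile subunit. On the Rb1+/+ arrays its log2 level (cluster 10384223) was 8.52, 8.26 and 8.37, and on the Rb1L/L arrays 7.84, 7.66 and 8.03, in the order of the replicate numbers. Every Rb1L/L array lay below every Rb1+/+ array. Means of 8.39 ± 0.13 and 7.84 ± 0.19 (SD, n = 3) gave a change of -0.54 ± 0.10 (SE), 1.46-fold lower, with an interval from -0.78 to -0.30 and limma adjusted p = 0.0176. The drop was present in each same-numbered pair, at -0.68, -0.60 and -0.34. Leaving out Rb1+/+ replicate 1 (limma adjusted p = 0.0581), the Rb1L/L culture numbered 1 (0.058) or that numbered 2 (0.0513) ended the call, as did leaving out both arrays numbered 1 (-0.47, 0.148) or both numbered 2 (-0.51, 0.0514). For either gene the smallest two-sided p that an exact permutation of 3 against 3 arrays can give is 0.1, and both reached it. The groups failed to overlap for 3 of the 10 members (Igfbp3, Igfbp5 and Igfbp7), beside 34.5% of all tested genes.

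**Figure D2:**
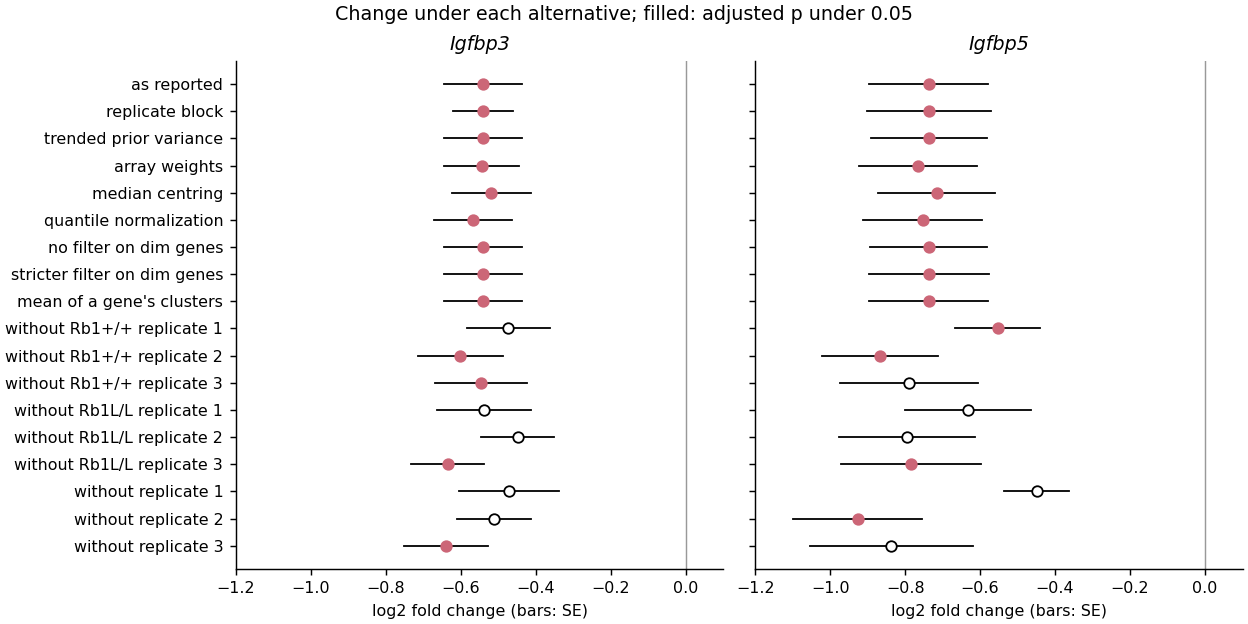
Log2 fold change (x, Rb1L/L minus Rb1+/+; bars show the SE) of Igfbp3 and Igfbp5 as reported and under each alternative (y); filled points have an adjusted p under 0.05. All points lie below 0, and 3 of the 6 fits without 1 array are open for each gene.

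The other 4 binding protein genes did not pass. Igfbp2, abundant in fetal tissues, was at log2 9.18, 8.81 and 9.53 in Rb1+/+ and 9.22, 9.29 and 9.29 in Rb1L/L replicates 1 to 3. The Rb1+/+ cultures spread widely around the tight Rb1L/L values (SD 0.36 and 0.04), and the difference of 0.09 ± 0.15 (SE; limma adjusted p = 0.732) turned to -0.09 without Rb1+/+ replicate 2. Igfbp4, whose product mostly restrains IGF until it is cleaved by pappalysin, measured 9.56, 9.68 and 9.92 against 9.69, 9.44 and 9.71. These values intermingle, and the difference was -0.11 ± 0.11 (SE; limma adjusted p = 0.552).

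Igfbp6, which prefers IGF2 as its ligand, was at log2 9.09, 9.33 and 9.00 in Rb1+/+ cultures and at 9.45, 9.33 and 9.23 in Rb1L/L cultures. It had the highest positive difference of the 10, 0.20 ± 0.10 (SE; limma adjusted p = 0.215), with an interval from -0.02 to 0.41. Igfbp7 encodes a secreted protein that binds IGF weakly and is associated with senescence. Its 13.29, 13.19 and 13.28 in Rb1+/+ and 13.19, 13.10 and 13.19 in Rb1L/L barely separated, since the lowest Rb1+/+ and the highest Rb1L/L value both round to 13.19. The same-numbered differences of Igfbp7 were nearly equal (-0.10, -0.09 and -0.09). Its change of -0.09 ± 0.06 (SE) did not pass (limma adjusted p = 0.336, or 0.312 with the replicate number as a block). The interval for Igfbp7 ran from -0.23 to 0.04, which leaves out a drop of the size estimated for Igfbp3.

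Igfbp5 and Igfbp2 are neighbouring protein-coding genes on chromosome 1 that are transcribed toward each other, and so are Igfbp3 and Igfbp1 on chromosome 11. In each pair of neighbours 1 gene fell (Igfbp5 and Igfbp3) and the other did not pass (Igfbp2 at 0.09 and Igfbp1 at -0.12); whether neighbours differed from each other was not tested. Igfbp1, a binding protein made mainly by liver, lay near the filter with means of log2 5.53 and 5.41 (limma adjusted p = 0.435).

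The ligand gene Igf1 varied more within a genotype (SD 0.29 and 0.27 in Rb1+/+ and Rb1L/L) than the receptor gene (SD 0.05 and 0.06). Igf1 was at log2 8.56, 8.24 and 8.82 in Rb1+/+ and at 7.86, 8.40 and 8.22 in Rb1L/L replicates 1 to 3. Arrays numbered 1 and 3 were lower in Rb1L/L, by 0.69 and 0.60, whereas the arrays numbered 2 differed by 0.15 in the other direction. The mean difference of -0.38 ± 0.17 (SE) did not pass (unadjusted p = 0.0509, limma adjusted p = 0.176), and its interval, -0.76 to 0.00, includes drops as large as that of Igfbp5. Leaving out the arrays numbered 2 gave -0.65 (limma adjusted p = 0.0637), and leaving out those numbered 1 gave -0.22.

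Igf1r, the receptor gene, measured log2 11.10, 11.04 and 11.14 in Rb1+/+ and 11.07, 10.96 and 11.07 in Rb1L/L cultures. The ranges overlap, and the difference was -0.06 ± 0.06 (SE; limma adjusted p = 0.555; interval -0.20 to 0.08).

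The docking protein genes differed least. Irs1 was at log2 10.37, 10.25 and 10.54 in Rb1+/+ and 10.36, 10.34 and 10.45 in Rb1L/L replicates 1 to 3, and Irs2 at 8.54, 8.52 and 8.42 against 8.45, 8.43 and 8.61. The genotypes overlapped for both genes, and Irs1 spread more in Rb1+/+ (SD 0.15) than in Rb1L/L cultures (SD 0.06). Differences were -0.003 ± 0.08 for Irs1 and 0.003 ± 0.07 for Irs2 (SE; limma adjusted p = 0.987 and 0.985). Their intervals, -0.19 to 0.19 and -0.16 to 0.16, leave out changes beyond 1.14-fold up for Irs1 and 1.12-fold up for Irs2; the signs are not settled, since centring each array on its median turned Irs1 to 0.02 and quantile normalization turned Irs2 to -0.03. A second, dimmer Irs1 cluster averaged log2 5.24 in Rb1+/+ and 5.44 in Rb1L/L cultures.

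**Figure D3:**
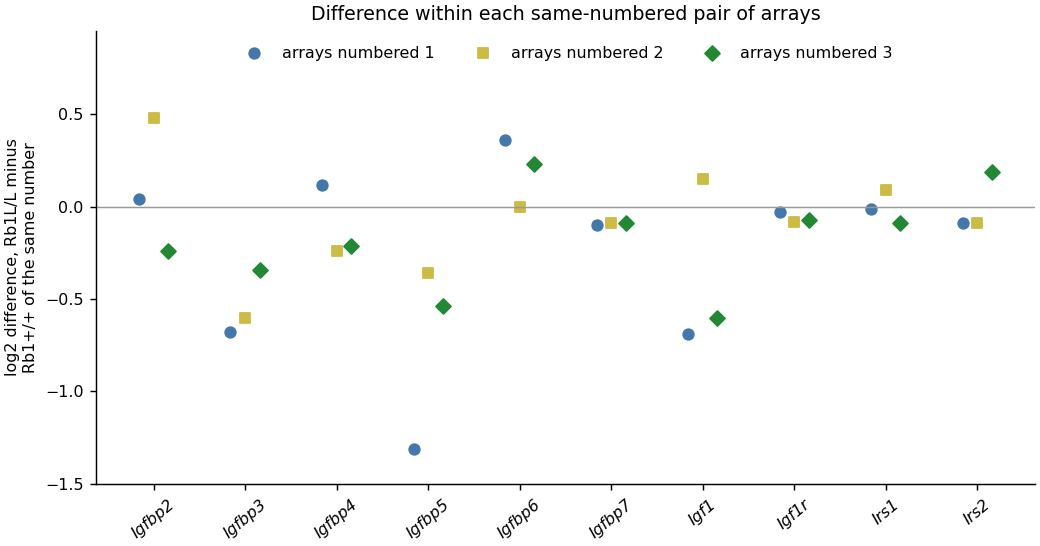
Log2 difference (y) between the Rb1L/L and the Rb1+/+ array of the same replicate number for each of the 10 genes (x). Igfbp3 and Igfbp5 are below 0 in all 3 pairs, by 0.34 to 1.31. So are Igfbp7 (-0.10, -0.09 and -0.09) and Igf1r (-0.03, -0.08 and -0.07), by less. The Igf1 pair numbered 2 lies at 0.15 while the other 2 lie at -0.69 and -0.60.

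The IGF axis list held 17 other genes of the IGF system, for ligands, receptors, carriers, proteases and RNA-binding proteins. Of these 15 were tested (Ins1 and Igf2bp2 are not analysed here). Stc1, a stanniocalcin that inhibits pappalysins, was the 1 gene of the list that fell, and none rose (limma; at an unadjusted p under 0.05 the counts were 5 and 1). Its log2 levels of 8.99, 8.89 and 9.42 in Rb1+/+ and 8.43, 8.34 and 8.67 in Rb1L/L did not overlap. They gave a change of -0.62 ± 0.14 (SE), 1.54-fold lower (limma adjusted p = 0.0295; 0.0631 without Rb1+/+ replicate 1, and 0.0922 and 0.0924 without Rb1L/L replicate 1 or 2). With any 1 of these 3 arrays left out the list held no called gene. The list's median was -0.137, and 14 of the 15 genes (93.3%) were below 0, beside -0.021 and 56.4% over all genes, of which 5.08% fell. The 14 include Insrr, Pappa2, Igfals and Igfbp1, with Rb1+/+ means of log2 5.32 to 5.53, near the filter. Their changes of -0.08 to -0.12 did not pass (limma adjusted p 0.435 to 0.608), so their signs are not settled. The gene above 0 was Igf2bp1 (0.185).

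Pappa encodes pappalysin 1, the protease that cleaves the products of Igfbp4 and Igfbp5. Its log2 levels were 10.74, 10.37 and 10.57 in Rb1+/+ and 10.22, 9.87 and 10.28 in Rb1L/L cultures. All Rb1L/L arrays were lower, and same-numbered arrays differed by -0.52, -0.50 and -0.29. The change of -0.44 ± 0.13 (SE) narrowly missed the threshold (limma adjusted p = 0.0592), and passed without Rb1+/+ replicate 2 (0.0466) or with the replicate number as a block (0.0107). With that block 4 genes of the list fell and none rose, Stc1 and Pappa with the IGF2 clearance receptor gene Igf2r (-0.29; limma adjusted p = 0.122 without the block and 0.043 with it) and the secreted protease gene Htra1 (-0.32; 0.142 and 0.0266). The block raised the background to 14.4% of all genes, 6.45% lower. Igf2, the fetal ligand gene, had log2 means of 13.02 ± 0.06 and 12.83 ± 0.13 (SD, n = 3; limma adjusted p = 0.142), and the insulin receptor gene Insr 9.07 and 8.93 (limma adjusted p = 0.249).

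Downstream of the receptor, 4 of 38 tested adaptor and kinase genes fell and none rose (limma, with 9 and 2 at an unadjusted p under 0.05). The share called in either direction was 10.5%, beside 12.2% of all tested genes, and 5.08% of all tested genes fell. Sos1 and Sos2 encode the exchange factors that load RAS with GTP. Sos1 was at log2 9.14, 9.19 and 9.08 in Rb1+/+ and 8.60, 8.59 and 8.72 in Rb1L/L, a change of -0.50 (limma adjusted p = 0.00449), and Sos2 changed by -0.32 (0.0108). For both paralogs the genotypes were separated by more than the range within either group, and each call held in all 6 fits without 1 array.

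Pdpk1 encodes the kinase that activates AKT. Its levels of 10.17, 10.13 and 10.17 against 9.86, 9.85 and 9.84 gave -0.31 (limma adjusted p = 0.0112), also held without any 1 array. Pik3r1, the gene of a regulatory PI3K subunit, changed by -0.33 (limma adjusted p = 0.0355), but of the fits without 1 array it passed only in that without Rb1+/+ replicate 2: leaving out Rb1+/+ replicate 1 gave an adjusted p of 0.103 and replicate 3 gave 0.0962, and leaving out Rb1L/L replicate 1, 2 or 3 gave 0.0933, 0.114 and 0.0568. Without both arrays numbered 1 none of these 4 genes passed, and without both numbered 2 or both numbered 3 only 1, Sos1, did. Without the arrays numbered 1, 2 or 3, only 5, 147 and 110 of all tested genes were called lower. Without the arrays numbered 1 Sos1, Sos2, Pik3r1 and Pdpk1 still stood at -0.48, -0.31, -0.30 and -0.31. With the replicate block 7 of the 38 fell and none rose, the additions being Pik3r2 (-0.25; limma adjusted p = 0.082 without the block and 0.0391 with it), Foxo1 (-0.29; 0.0847 and 0.0293) and Braf (-0.29; 0.078 and 0.0274).

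The list's median was -0.039. Grb10, an imprinted adaptor that restrains the receptor, was at log2 11.86 ± 0.05 and 11.68 ± 0.04 (SD, n = 3), a difference of -0.18 that did not pass (limma adjusted p = 0.0716, or 0.0263 with a trended prior variance). The kinase genes Akt1 and Akt2 differed by 0.03 and 0.01 (limma adjusted p = 0.805 and 0.944). Of the 46 listed genes 8 were not analysed here.

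**Figure D4:**
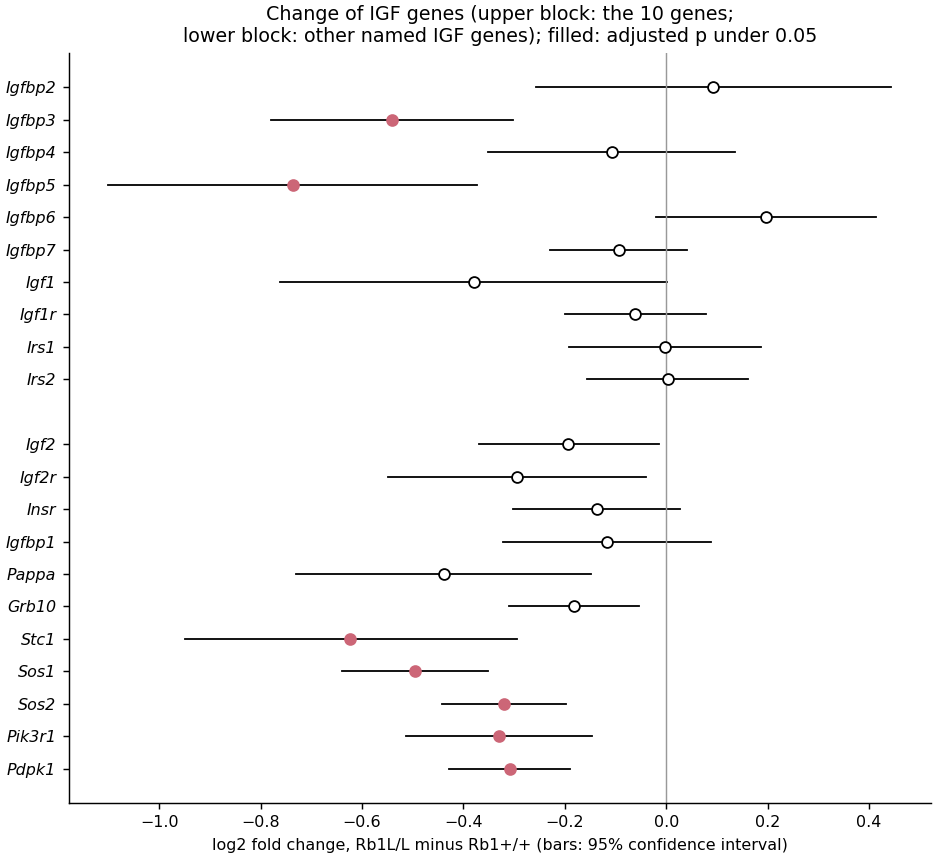
Log2 fold change (x, Rb1L/L minus Rb1+/+) with its 95% confidence interval for the 10 genes (upper block) and the other named IGF genes (lower block); filled points have an adjusted p under 0.05. Igfbp3 and Igfbp5 are filled in the upper block and Stc1, Sos1, Sos2, Pik3r1 and Pdpk1 in the lower one, and all 7 lie below 0.

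Other secreted proteins share the amino-terminal domain of the binding proteins, among them the CCN matricellular proteins. Of 13 such genes none rose and none fell (limma; 0 and 2 at an unadjusted p under 0.05), and their median was 0.005. Ccn1 and Ccn2, both induced by serum and stretch, differed by 0.13 and 0.01 (limma adjusted p = 0.177 and 0.934). Ccn4, a WNT-induced member, was at log2 11.26 ± 0.07 and 11.03 ± 0.06 (SD, n = 3), a difference of -0.23 (limma adjusted p = 0.0518). With the replicate block Ccn4 (limma adjusted p = 0.0412) and Htra1 (0.0266), which is also in the IGF axis list, fell.

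**Figure D5:**
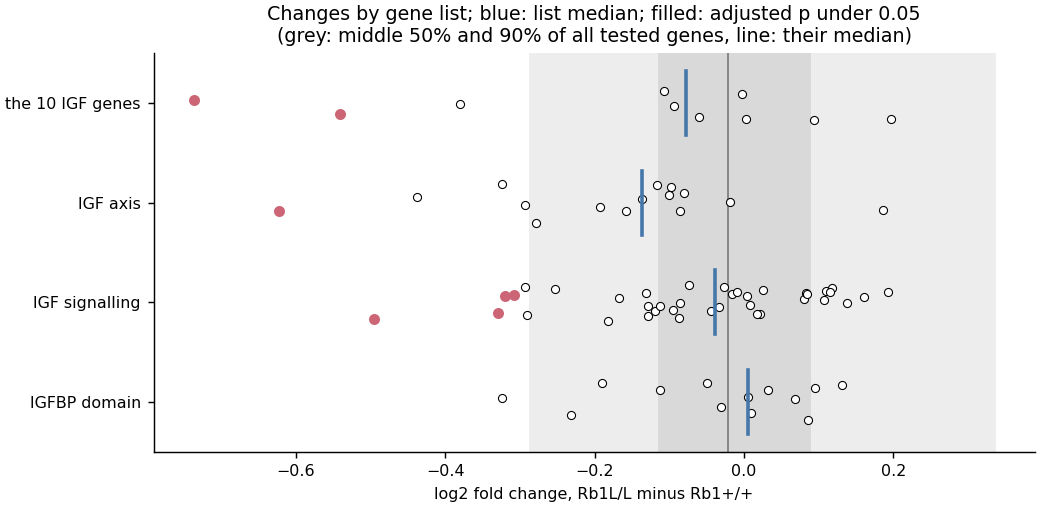
Log2 fold change (x) of each tested gene in the 4 gene lists (y; vertical jitter has no meaning), with filled points for an adjusted p under 0.05 and blue bars for list medians; grey bands hold the middle 50% and 90% of all tested genes. Medians are -0.077, -0.137, -0.039 and 0.005 from top to bottom, and every filled point lies to the left of 0.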

How the data were processed

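The deposited table holds 1 log2 value per array for each of 35556 transcript clusters. Per the submitters' processing notes the authors used RMA and Partek; no version, setting or genome build is given in the sources used here, and the log base is read from the usual output of RMA. RMA forces arrays onto one distribution and compresses folds of dim genes. Array medians lay between 6.393 and 6.449. Precision is limited by having 3 arrays a group.

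Of the clusters, 21789 carried 1 gene symbol (1621 several, 12146 none here), updated through Entrez IDs; 21698 matched RefSeq (GRCm38.p6). Genes were kept when brighter on average than log2 5.081 (90% of 1194 olfactory or vomeronasal receptor genes lie below this) and tested with limma 3.58.1 in R 4.3.3 (lmFit, eBayes, genotype only), adjusted over all tested genes at 0.05. The procedure was tested on simulated independent arrays with planted changes. That simulation held no correlation by replicate number, so it cannot tell how leaving out the pairing affects the calls. The members, lists and rules were chosen with earlier results of these data known. Named genes were the 10 members, 6 fixed IGF genes, and list genes that passed; others were named after their values were seen. The replicate numbers pair the samples: with group means removed, arrays sharing a number correlated at 0.30, 0.24 and 0.30, and the design text mentions pairs. Alternatives were the replicate block, moderation, array weights, scaling, filters, cluster choice and leaving out arrays.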

Additional observations from a re-analysis of the deposited data

How the results depend on the processing

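Igfbp3 and Igfbp5 stayed below 0 under all 17 alternatives and passed under the 8 that kept all arrays (adjusted p 0.00873 to 0.0192 and 0.0179 to 0.0302). Of 170 member values under alternatives, 146 kept direction and call, 10 lost the call and 14 changed sign; the sign changes belonged to Igfbp2, Irs1 and Irs2. Irs1 was 0.003 with array weights, 0.019 after median centring and 0.098 with the mean of its clusters, and Irs2 was -0.016 with array weights and -0.029 after quantile normalization. Without 1 array or 1 replicate number, Igfbp2 ranged from -0.099 to 0.270, Irs1 from -0.072 to 0.076 and Irs2 from -0.090 to 0.050.

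The replicate block changed no member's call, but raised the genes called lower to 4 in the IGF axis list, 7 in the signalling list and 2 in the IGFBP domain list. A trended prior variance called 2, 5 and 1 lower in these lists and 1 higher in the signalling list. Array weights, quantile normalization and the stricter filter (log2 5.585) each called 1 domain gene lower. Fits without 1 array or 1 number called 0 to 2 members lower, 0 to 2, 0 to 4 and 0 in the lists, and 87 to 850 genes higher and 5 to 591 lower in all (1098 and 785 with all arrays); those fits have fewer arrays. The cause of the other shifts was not tested.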

Other observations

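Igf1 is also made by macrophages. Within both genotypes, 7 of 11 macrophage and blood markers ranked the 3 arrays in the same order as Igf1, while C1qa, Cd14, Cd68 and Ptprc did not in 1 of the genotypes. An order of 3 arrays is easily shared, and the share of all tested genes with the order of Igf1 was not counted. In Rb1+/+ replicates 1, 2 and 3, Igf1 was at log2 8.56, 8.24 and 8.82 and the complement gene C1qb, which shared its order, at 8.54, 8.10 and 9.01. In Rb1L/L replicates 1, 2 and 3 the values were 7.86, 8.40 and 8.22 for Igf1 and 8.24, 9.05 and 8.69 for C1qb. The mean log2 level of the 11 markers was 7.22, 7.00 and 7.51 in Rb1+/+ and 7.30, 7.70 and 7.50 in Rb1L/L. Between genotypes the orders did not match: for the arrays numbered 1 the marker mean was higher in Rb1L/L and Igf1 lower, for those numbered 2 both were higher, and for those numbered 3 the marker mean was nearly equal while Igf1 was lower by 0.60. This was noticed after the values were seen, and the part of these cells in the level of Igf1 was not tested.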
